A study of Mus musculus with 7 samples.

Results

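Glycolysis and the response to low oxygen were described here through 36 genes, taken by name from a table of 30590 rows for the whole series. All 36 were in the table. A class of 22 glycolysis genes held 3 transporters of glucose and lactate, 16 enzymes and 3 regulators of flux, and a class of 14 held other genes known to respond to the hypoxia-inducible factors (HIF). The well-known glycolysis enzyme Gapdh was left out by the choice of members because its level swung between replicates (6.19 and 7.13, 1.85 and 3.44, 3.51 and 7.08, and 0, over days 0, 2, 4 and 6).

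The cells were mouse embryonic stem cells of the Bry-GFP line, which by its name carries a GFP reporter at Brachyury, and the labels name no other allele. On day 0 they grew on mouse embryonic feeders in medium with 15% serum and the cytokine LIF at 1000 U/mL. Without feeders, serum or LIF, they were then kept in suspension at 75000 cells per mL for 48 h and formed aggregates, the embryoid bodies of day 2. Day 4 followed 48 h with the BMP inhibitor Noggin (150 ng/mL), the ligand Wnt3a (25 ng/mL) and the TGF-beta family ligand Activin A (9 ng/mL). Day 6 followed a further 48 h with basic FGF (10 ng/mL). The day 6 library is also recorded with Noggin, Wnt3a and Activin A at the doses of day 4. That record does not separate earlier exposure from the last 48 h. Each day differed from the one before in time in culture and in medium together, so these cannot be told apart, and no oxygen level is named in the labels. Days 0, 2 and 4 have 2 libraries each, described as biological replicates, and day 6 has 1. The p-values measure only the spread between these libraries.

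Glycolysis turns glucose into pyruvate in the cytosol, with a net gain of ATP, and lactate dehydrogenase can then reduce pyruvate to lactate. Both pluripotent stem cells and early embryonic cells are known for high glycolytic flux. When oxygen is plentiful, prolyl hydroxylases mark the alpha subunits of HIF for destruction. When it is scarce the subunits persist, pair with the beta subunit ARNT and bind short DNA motifs near target genes, many of which encode glycolysis enzymes, the glucose transporter Slc2a1, and the prolyl hydroxylases themselves. Many of the same genes also respond to growth factor and MYC signals.

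Levels are log2 of 1 plus scaled reads, in order of replicate number within a day, and a fold change is on that scale, which understates the change of low genes. Levels follow transcript length, so they are read across libraries for 1 gene and not between genes. The depth was estimated at 2880000 to 6510000 reads per library, and 3 reads at a level of 1.45 to 2.3. Both came from the 3 most common values and suppose that values scale with reads. The libraries had been quantile normalized, that is set to 1 common distribution, which need not keep that scale. On day 0 the lowest and highest of these values (0.4011 and 1.45, 0.5078 and 1.705) are not in the ratio of 1 to 3 reads. The depths and this level are guides only, least sure for day 0. Ankrd37, Car9 and Pfkfb4 were listed at 0 in at least 1 library, and the other 33 members had a mean of at least 10 scaled reads. All 36 passed the filter for testing, a level above 0 in any library. An annotated gene on the other strand overlaps 15 of the members, and a protein-coding one overlaps 5 (Pfkm, Pfkp, Aldoa, Tpi1 and Ankrd37), and the sources used here do not say whether reads were counted by strand. The fibroblast collagen Col1a1 fell from 11.16 and 11.82 on day 0 to 7.17 and 6.12 on day 2, and the smooth muscle actin Acta2 fell from 11.59 and 11.89 to 4.23 and 3.22. The summed level of 12 fibroblast markers was 14.38 and 14.57, 10.81 and 10.29, 8.86 and 8.79, and 9.02 over days 0, 2, 4 and 6, and none of the 12 was at 0 in any library. The summed level of 8 pluripotency markers was 13.84 and 13.64, 13.27 and 13.12, 12.24 and 12.27, and 11.01. In bulk RNA, fewer cells of a type and less RNA per cell cannot be told apart.

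In the main fit few members changed on day 2, members of both classes rose on day 4, and some glycolysis genes fell on day 6. From day 0 to day 2, 1 member rose and 4 fell by limma's moderated test at an adjusted p below 0.05, against 5.76% of all 21813 genes tested that rose and 6.2% that fell. From day 2 to day 4, 12 members rose, 8 of the 22 glycolysis genes and 4 of the 14 HIF response genes, against 1.45% of all genes, and 0 fell, against 2.13% (limma, 1 member of each class was lower at an unadjusted p below 0.05). From day 4 to day 6, 7 of the 22 glycolysis genes fell, against 3.18% of all genes. In that step 0 of the 14 HIF response genes were called by limma in either direction, against 4.46% of all genes, with 5 higher and 0 lower at an unadjusted p below 0.05. A count of 0 among 14 genes is near that share and is not read as a trait of the class. Between day 0 and day 4, 19 members were higher, against 11.3% of all genes, and 2 were lower, against 10.4%. These steps share libraries (day 2 and day 4 each stand in 2 or more of them) and are given side by side. Over the whole course 25 of the 36 members passed limma's F test for a change at any time, 16 of 22 and 9 of 14, against 28.6% of all genes. Many of all genes are low, while 33 members had a mean of at least 10 scaled reads. When the 11800 genes above that minimum were fitted alone, 6425 of them passed the F test, so the share of 28.6% overstates the contrast.

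The median log2 change of the glycolysis class was -0.02, 0.73 and -0.79 for the steps to day 2, day 4 and day 6. That of the HIF response class was -0.13, 0.99 and 0.56. The medians over all genes tested were 0.05, 0.0 and 0.0. The difference between the classes on day 6 was not tested. Summed over its members, the glycolysis class stood at 15.15 and 15.08, 15.16 and 14.98, 15.76 and 15.94, and 14.99. The summed HIF response class stood at 11.61 and 11.50, 11.29 and 11.55, 12.02 and 12.39, and 12.74. Of the glycolysis genes 13 had their highest mean on day 4 and 5 on day 6, while of the HIF response genes 2 were highest on day 4 and 10 on day 6. From day 2 to day 4 the libraries of the days did not overlap in 25 of the 36 members with day 4 higher, against 20.9% of all genes, and in 2 with day 4 lower, against 22.0%. From day 4 to day 6 they did not overlap in 4 glycolysis and 8 HIF response genes with day 6 higher, against 38.0%, and in 15 and 2 with day 6 lower, against 29.1%. Between day 0 and day 4, 22 members were apart with day 4 higher, against 30.4%, and 8 with day 4 lower, against 26.9%. Between day 0 and day 2, 10 were apart with day 2 higher, against 28.6%, and 12 with day 2 lower, against 21.6%. Most members are above the mean-level minimum of 10 scaled reads, and among the 11800 genes above it the shares that did not overlap were larger. They were 27.3% higher and 29.7% lower from day 2 to day 4, 45% and 40.1% from day 4 to day 6, 41.1% and 32.8% between day 0 and day 4, and 40.2% and 24.6% between day 0 and day 2.

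The calls rest on each library of days 0, 2 and 4. Without 1 of the libraries of days 0, 2 or 4 in turn, between 0 and 14 of the 45 called changes kept an adjusted p below 0.05, and none changed direction. Without the day 6 library, 38 of the 38 calls among days 0, 2 and 4 were kept. That was nearly fixed in advance, since the single day 6 library has its own mean and adds nothing to the measured spread. When only the libraries of the 2 days compared were fitted, 38 of 38 were kept.

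The motif to which HIF dimers are known to bind has the core letters ACGTG or GCGTG, and it was looked for on both strands of RefSeq promoters (GRCm38.p6), each from 250 bases before to 50 bases after a gene's start. Of the 36 members, 34 had a promoter in the table. ACGTG stood in a promoter of 11 of 13 HIF response genes (84.6%) and 12 of 21 glycolysis genes (57.1%), against 21.8% of all genes and 29.9% of genes with a mean of at least 10 scaled reads. GCGTG stood in 84.6% and 61.9%, against 35.2% and 57.8%. A palindrome CACGTG counts as 2 overlapping matches of ACGTG and was in 7.2% of all promoters. A match is only a run of letters, and whether HIF binds there was not measured. The HIF response class was listed for its known response to HIF, so a high share there is no independent finding. The 250 bases before the start are printed for 5 members that rose on day 4, 4 with ACGTG and 1 without, chosen after the matches were seen to show both cases. Each runs 5′ to 3′ on the strand of its gene, with every ACGTG, or its reverse complement CACGT, in capitals. Slc2a1 (chr4:119108495-119108744, plus strand) has 1 match, which starts 36 bases before the RefSeq start. Ldha (chr7:46845554-46845803, plus strand) has 5. Egln1 (chr8:124949255-124949504, minus strand) has 1 at 68 bases before the start, and Ddit4 (chr10:59951771-59952020, minus strand) has 1 at 187 bases before it. Tpi1 (chr6:124814159-124814408, minus strand) has 0. In each of the 5 the RefSeq start lies inside the annotated gene. Part of each printed stretch, and all of that of Ldha, is therefore within the annotated gene, as is the match of Egln1.
Slc2a1: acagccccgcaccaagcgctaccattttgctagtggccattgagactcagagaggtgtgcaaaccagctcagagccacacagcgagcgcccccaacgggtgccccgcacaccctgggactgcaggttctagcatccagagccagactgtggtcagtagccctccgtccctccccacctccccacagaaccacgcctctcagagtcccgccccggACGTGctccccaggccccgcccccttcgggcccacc
Ldha: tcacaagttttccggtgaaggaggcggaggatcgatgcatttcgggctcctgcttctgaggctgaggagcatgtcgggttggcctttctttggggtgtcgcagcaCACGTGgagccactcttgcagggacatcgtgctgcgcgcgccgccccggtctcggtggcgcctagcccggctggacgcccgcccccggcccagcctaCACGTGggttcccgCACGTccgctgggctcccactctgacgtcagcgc
Egln1: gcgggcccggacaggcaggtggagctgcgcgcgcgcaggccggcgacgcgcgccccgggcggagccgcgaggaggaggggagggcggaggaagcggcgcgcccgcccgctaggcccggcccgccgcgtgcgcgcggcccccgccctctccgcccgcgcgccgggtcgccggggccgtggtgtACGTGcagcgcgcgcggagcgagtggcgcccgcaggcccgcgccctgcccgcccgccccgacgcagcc
Ddit4: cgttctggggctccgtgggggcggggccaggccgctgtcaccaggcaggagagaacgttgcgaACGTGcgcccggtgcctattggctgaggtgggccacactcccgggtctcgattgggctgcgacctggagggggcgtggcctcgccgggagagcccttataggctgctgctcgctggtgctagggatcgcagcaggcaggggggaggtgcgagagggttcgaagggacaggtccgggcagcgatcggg
Tpi1: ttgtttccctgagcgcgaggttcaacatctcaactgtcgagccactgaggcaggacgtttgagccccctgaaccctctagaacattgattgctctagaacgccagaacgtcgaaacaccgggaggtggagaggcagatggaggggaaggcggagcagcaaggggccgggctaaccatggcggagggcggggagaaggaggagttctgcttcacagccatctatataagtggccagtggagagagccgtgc

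**Figure D1:**
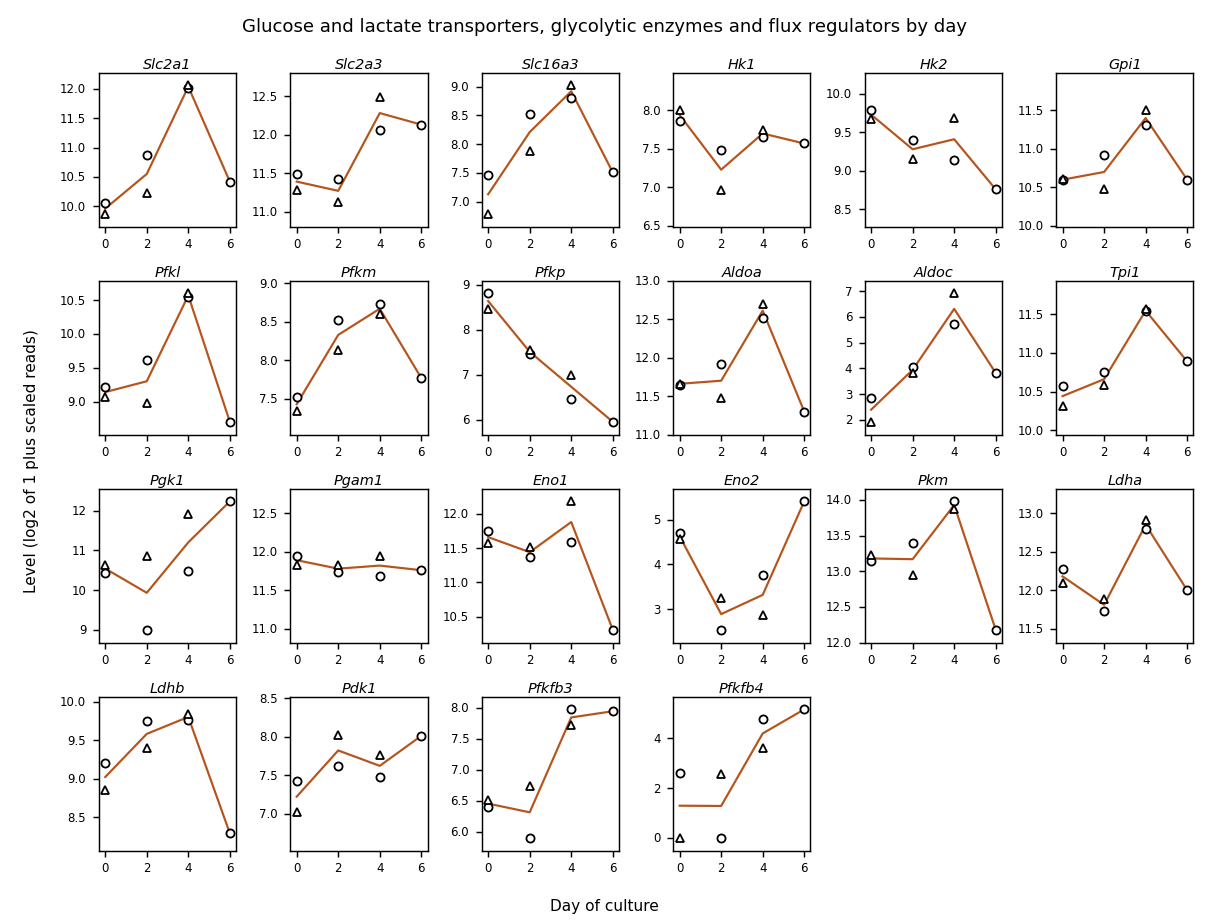
Level of each of the 22 glycolysis class genes (log2 of 1 plus scaled reads, y axis) in each library by day (x axis), as points, with a line joining the means of the days. Most of the enzymes and the transporters Slc2a1, Slc2a3 and Slc16a3 reach their highest mean on day 4. Pfkp steps down through the course, and Pgk1 has replicates far apart on days 2 and 4.

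The 3 transporters carry glucose in (Slc2a1 and Slc2a3) and lactate out (Slc16a3, also called MCT4). Slc2a1, on chromosome 4 (119108711 to 119137983, plus strand, GRCm38), had levels of 10.05 and 9.87, 10.88 and 10.23, 12.02 and 12.06, and 10.42 over days 0, 2, 4 and 6, an order kept for all genes. Both day 4 libraries were above every other library. It rose 2.81-fold from day 2 to day 4 (log2 change 1.49 ± 0.21 SE, adjusted p = 0.0206, limma) and fell 3.08-fold on day 6 (-1.63 ± 0.25, adjusted p = 0.0281). Slc2a3, the transporter with high affinity for glucose, was at 11.49 and 11.28, 11.42 and 11.12, 12.06 and 12.49, and 12.13. It rose on day 4 (1.01 ± 0.18, adjusted p = 0.0363), and on day 6 its library lay between those of day 4. The call for Slc2a3 on day 4 was lost with the replicate number as a block (adjusted p = 0.0572). Slc16a3 was at 7.47 and 6.79, 8.53 and 7.88, 8.81 and 9.02, and 7.51, with all libraries of days 2 and 4 above those of day 0. It was higher on day 4 than on day 0 (1.79 ± 0.30, adjusted p = 0.00778), and no single step passed the test.

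The first enzymes act on glucose and glucose 6-phosphate. The hexokinases Hk1 and Hk2, which phosphorylate glucose, did not pass the F test. Their levels ran from 6.97 to 8.01 for Hk1 and from 8.76 to 9.79 for Hk2, with the highest mean of each on day 0. Gpi1, which turns glucose 6-phosphate into fructose 6-phosphate, was at 10.59 and 10.61, 10.92 and 10.48, 11.31 and 11.50, and 10.60. Its day 4 libraries were above all others, and it was higher on day 4 than on day 0 (0.80 ± 0.16, adjusted p = 0.0151).

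Phosphofructokinase, the main control point of the pathway, is made from 3 genes whose products combine into tetramers, and the 3 did not move alike. Pfkl (chromosome 10, 77986947 to 78010083, minus strand) was at 9.22 and 9.06, 9.62 and 8.98, 10.54 and 10.60, and 8.70. It rose 2.42-fold on day 4 (1.27 ± 0.21, adjusted p = 0.0311) and fell 3.66-fold on day 6 (-1.87 ± 0.26, adjusted p = 0.0227), to a level under every other library. On GC-corrected levels that fall was -1.08. Pfkm was at 7.52 and 7.34, 8.52 and 8.14, 8.73 and 8.60, and 7.77. It was the single member called higher on day 2 (0.90 ± 0.18, adjusted p = 0.0235), and its level on day 4 stayed above day 0 (1.24 ± 0.18, adjusted p = 0.0045). Pfkp was at 8.81 and 8.47, 7.47 and 7.55, 6.45 and 7.0, and 5.95, so that no library of a later day reached one of an earlier day. It fell on day 2 (-1.13 ± 0.23, adjusted p = 0.0275) and was 3.77-fold lower on day 4 than on day 0 (-1.92 ± 0.23, adjusted p = 0.00257). Those differences from day 0 came with the fall of the fibroblast markers given above, whose part in them was not tested.

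Aldolase splits the 6-carbon sugar, and triose phosphate isomerase (Tpi1) interconverts the products. Aldoa (chromosome 7, 126795234 to 126800751, minus strand) was at 11.65 and 11.66, 11.92 and 11.48, 12.51 and 12.70, and 11.30. It rose on day 4 (0.91 ± 0.15, adjusted p = 0.0337) and fell on day 6 (-1.31 ± 0.19, adjusted p = 0.024). With the replicate block the rise on day 4 had an adjusted p of 0.0508, and on levels corrected for GC content the day 6 change was -0.46 (adjusted p = 0.103), no longer called. Aldoc, the aldolase best known from brain, was at 2.86 and 1.92, 4.06 and 3.82, 5.71 and 6.91, and 3.82. Its first libraries are near the estimated level of 3 reads. It was higher on day 4 than on day 0 (3.92 ± 0.53, adjusted p = 0.00376). Tpi1 was at 10.57 and 10.31, 10.75 and 10.58, 11.54 and 11.57, and 10.89, and rose on day 4 (0.89 ± 0.12, adjusted p = 0.0206).

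Among the enzymes of the later steps, Pkm, Ldha, Ldhb and Eno1 fell on day 6. Pkm, the pyruvate kinase gene (chromosome 9, 59656368 to 59679375, plus strand), stood at 13.14 and 13.23, 13.39 and 12.95, 13.98 and 13.87, and 12.18. Its day 4 libraries were the highest and its day 6 library the lowest. It rose 1.69-fold on day 4 (0.76 ± 0.14, adjusted p = 0.0452, and 0.0508 with the replicate block) and fell 3.36-fold on day 6 (-1.75 ± 0.18, adjusted p = 0.0144). Ldha (chromosome 7, 46841475 to 46855627, plus strand), encoding the lactate dehydrogenase subunit that favours lactate, was at 12.27 and 12.09, 11.73 and 11.88, 12.79 and 12.91, and 12.00. Ldha, with 5 ACGTG matches in the printed promoter, rose 2.06-fold on day 4 (1.04 ± 0.10, adjusted p = 0.00971) and fell 1.8-fold on day 6 (-0.85 ± 0.13, adjusted p = 0.0268). Ldhb, the other main subunit, was at 9.20 and 8.85, 9.75 and 9.40, 9.76 and 9.84, and 8.29, and fell on day 6 (-1.51 ± 0.21, adjusted p = 0.0233).

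Eno1 and Pgk1 have near-identical copies elsewhere in the genome that could take a share of their reads, so their values are uncertain. Copies at 95% identity or more are also annotated for Ldha and Bnip3 (3 each) and for Gpi1, Tpi1, Pgam1, Pkm and Ldhb (1 each). Of these only that of Gpi1 was found with a level above 0, at a mean more than 4 log2 units below Gpi1. Whether the others affected the counting of reads was not tested. Eno1, the main enolase gene, was at 11.75 and 11.57, 11.37 and 11.52, 11.59 and 12.18, and 10.31, and fell on day 6 (-1.58 ± 0.24, adjusted p = 0.0268). The copy Eno1b matches it at 99.5% over 1736 bases, and with its reads added the day 6 change was -1.68 (adjusted p = 0.0213). Eno1b stood above Eno1 in every library, at 12.44 and 12.31, 13.04 and 12.18, 13.14 and 12.79, and 11.26. On GC-corrected levels the day 6 change of Eno1 was -1.07 (adjusted p = 0.0751), no longer called. Pgk1, phosphoglycerate kinase, was at 10.44 and 10.64, 9.00 and 10.86, 10.48 and 11.91, and 12.23, with replicates of days 2 and 4 more than a log2 unit apart, and did not pass the F test. The copy Pgk1-rs7 matches it at 100% over 1255 bases and was itself at 9.96 to 11.14. Eno2, the neuronal enolase, ran from 2.54 to 5.41 with its highest level on day 6, and was past the threshold of the F test with no single step called. Pgam1, phosphoglycerate mutase, stayed between 11.69 and 11.95 in all 7 libraries, the narrowest range of levels among the 36 genes.

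The flux regulators act beside the pathway. Pfkfb3 makes fructose 2,6-bisphosphate, the strongest activator of phosphofructokinase. It was at 6.39 and 6.51, 5.90 and 6.73, 7.97 and 7.71, and 7.94, and rose on day 4 (1.52 ± 0.29, adjusted p = 0.0447, and 0.0599 with the replicate block). Its relative Pfkfb4 was listed at 2.59 and 0, 0 and 2.56, 4.77 and 3.62, and 5.17, with no call. Pdk1, a mitochondrial kinase that inhibits pyruvate dehydrogenase and so restrains the turning of pyruvate into acetyl-CoA, ran from 7.02 to 8.02 and did not pass the F test.

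**Figure D2:**
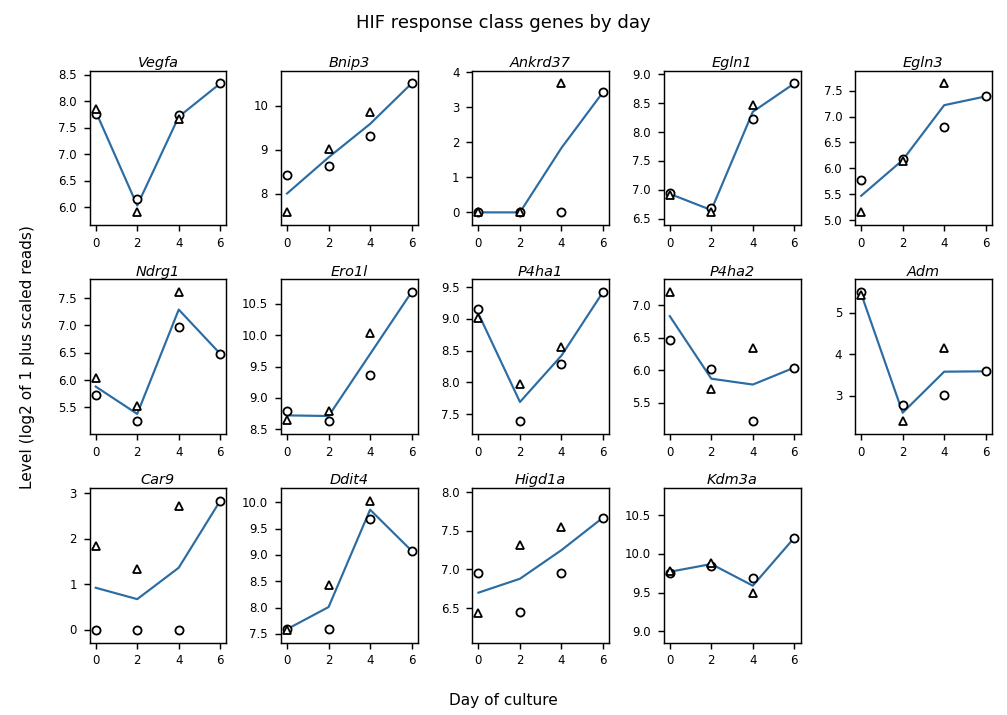
Level of each of the 14 HIF response class genes (log2 of 1 plus scaled reads, y axis) in each library by day (x axis), as points, with a line joining the means of the days. Vegfa, Egln1, Ndrg1 and Ddit4 step up between day 2 and day 4, Vegfa, P4ha1 and Adm step down between day 0 and day 2, and Ankrd37 and Car9 are listed at 0 in several libraries.

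Of the 14 HIF response genes, the secreted factors come first. Vegfa, the main growth factor for blood vessels (chromosome 17, 46016993 to 46032369, minus strand), was at 7.76 and 7.85, 6.16 and 5.90, 7.75 and 7.66, and 8.34. The day 2 libraries were below all others. It fell 3.43-fold on day 2 (-1.78 ± 0.17, adjusted p = 0.00219) and rose 3.21-fold on day 4 (1.68 ± 0.17, adjusted p = 0.00951). Adm, the vessel-relaxing peptide adrenomedullin, was at 5.50 and 5.43, 2.78 and 2.39, 3.02 and 4.15, and 3.59. It fell 7.35-fold on day 2 (-2.88 ± 0.48, adjusted p = 0.0136) and was still lower on day 4 than on day 0 (-1.88 ± 0.48, adjusted p = 0.0347, and 0.0519 with the replicate block). Its day 2 libraries are near the estimated level of 3 reads (2.116 and 2.252), so the size of the fall is uncertain.

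P4ha1 and P4ha2 encode the catalytic subunits of collagen prolyl hydroxylase, and Ero1l an oxidase that forms disulfide bonds in the endoplasmic reticulum. P4ha1 was at 9.16 and 9.01, 7.39 and 7.98, 8.28 and 8.56, and 9.42, and fell on day 2 (-1.40 ± 0.22, adjusted p = 0.0114). The falls of Vegfa, Adm and P4ha1 on day 2 came with those of the 12 fibroblast markers, all of which fell in that step with a median log2 change of -3.79. The part of that change in the 3 falls was not tested. P4ha2 was between 5.22 and 7.20 with no call. Ero1l was at 8.79 and 8.64, 8.63 and 8.79, 9.36 and 10.04, and 10.69, and was higher on day 4 than on day 0 (0.98 ± 0.22, adjusted p = 0.0244). Without day 4 replicate 2 that change was 0.64.

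The oxygen-sensing enzymes Egln1 and Egln3 are the prolyl hydroxylases that mark HIF, and are themselves known HIF targets. Egln1 (chromosome 8, 124908587 to 124949324, minus strand) was at 6.95 and 6.91, 6.68 and 6.61, 8.23 and 8.47, and 8.84, with the libraries of days 4 and 6 above those of days 0 and 2. Egln1, with 1 ACGTG in the printed promoter, rose 3.25-fold on day 4 (1.70 ± 0.16, adjusted p = 0.00886). Without 1 library in turn, the change of Egln1 on day 4 ran from 1.58 to 1.82, and the call was lost in most of these fits. Egln3 was at 5.78 and 5.15, 6.19 and 6.14, 6.80 and 7.64, and 7.39, and was higher on day 4 than on day 0 (1.75 ± 0.34, adjusted p = 0.014).

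Other HIF response genes act on growth, mitochondria and chromatin. Ddit4, an inhibitor of mTORC1 also known as REDD1 (chromosome 10, 59949669 to 59951834, minus strand), was at 7.60 and 7.58, 7.59 and 8.43, 9.68 and 10.03, and 9.08. It rose 3.59-fold on day 4 (1.84 ± 0.28, adjusted p = 0.0254), and on GC-corrected levels the change was 1.57 (adjusted p = 0.0737), no longer called. Ndrg1, a stress gene, was at 5.73 and 6.03, 5.25 and 5.52, 6.97 and 7.61, and 6.48, and rose 3.74-fold on day 4 (1.90 ± 0.28, adjusted p = 0.0251). Bnip3, a mitophagy receptor, was at 8.44 and 7.58, 8.63 and 9.03, 9.31 and 9.86, and 10.51, and was higher on day 4 than on day 0 (1.57 ± 0.32, adjusted p = 0.0164). Kdm3a, a histone demethylase, stayed between 9.50 and 10.21, and Higd1a, a small protein of the respiratory chain, between 6.44 and 7.67, and neither passed the F test. Car9, a carbonic anhydrase used widely as a hypoxia marker, was listed at 0 in 3 of 7 libraries and at 2.83 or less in the rest. Ankrd37 was listed at 0 in the first 5 libraries, at 3.68 in day 4 replicate 2 and at 3.43 on day 6.

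The day 4 libraries differed in these genes mostly in 1 direction. Replicate 2 was above replicate 1 in 12 of the 14 HIF response genes, by a median of 0.61, and in 17 of the 22 glycolysis genes, by a median of 0.15. Among all genes with a mean of at least 10 scaled reads it was above in 49.7%. No test was made of this difference between single libraries.

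**Figure D3:**
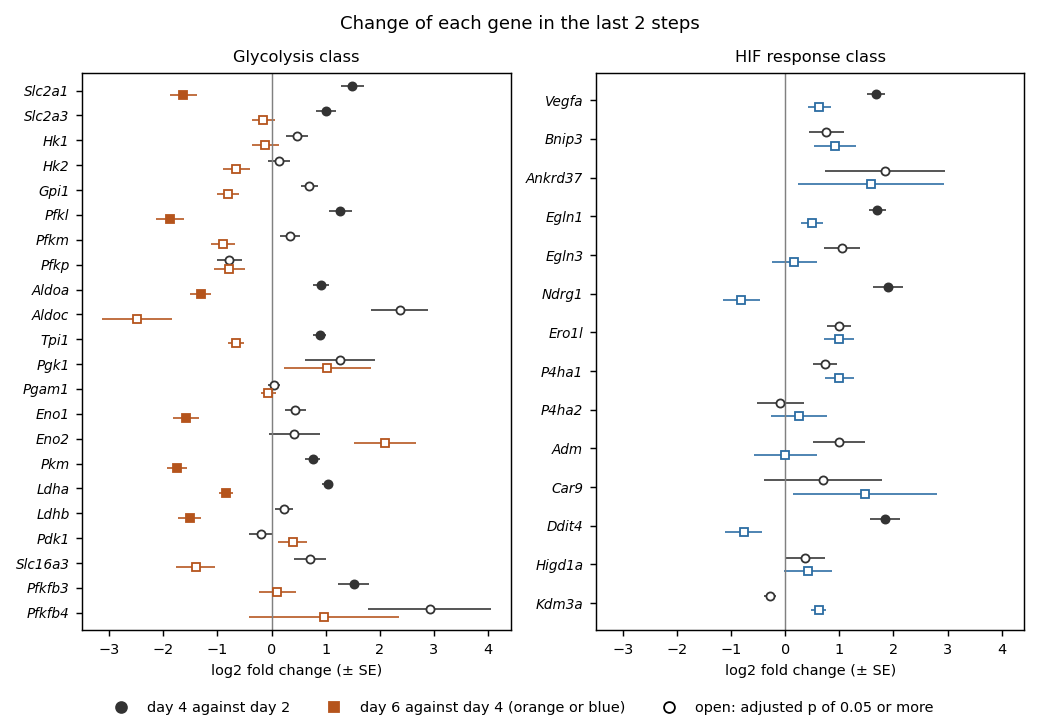
Log2 change of each member with its standard error for the steps from day 2 to day 4 and from day 4 to day 6, with glycolysis genes in the left panel and HIF response genes in the right, and filled symbols for members past the limma threshold. The glycolysis genes lie mostly above 0 on day 4 and mostly below 0 on day 6, where most HIF response genes lie above 0 without a call.

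On day 6 most HIF response genes were above day 4, none of them past the test. P4ha1 differed by 1.00 ± 0.27 (adjusted p = 0.0828), Ero1l by 0.99 ± 0.28 (adjusted p = 0.0901), Bnip3 by 0.92 ± 0.39 (adjusted p = 0.207), Vegfa by 0.63 ± 0.21 (adjusted p = 0.122) and Kdm3a by 0.62 ± 0.14 (adjusted p = 0.057). Differences of similar size lay in the other direction, at -0.81 for Ndrg1 and -0.77 for Ddit4. The comparison sets 1 library on day 6, of replicate 1, against both replicates of day 4, and takes its spread from the other days. Beside these steps, the summed level of 8 primitive streak and endoderm markers was 6.28 and 7.77, 10.16 and 9.92, and 8.96 over days 2, 4 and 6. For 8 neural markers it was 9.38 and 8.93, 11.51 and 10.35, and 12.04. No marker list was tested for its part in the changes of the members.

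The day 6 library also differed from those of day 4 by base composition. Among the genes with a mean of at least 10 scaled reads, the median log2 change on day 6 was 0.45 among the 3912 genes with the lowest GC content (31.2% to 46.8%), 0.07 among the 3911 in the middle and -0.65 among the 3912 with the highest (52.8% to 75.0%). The glycolysis genes had a median GC content of 54.0% and the HIF response genes one of 51.8%. With levels corrected for GC content within each library, the medians on day 6 were -0.4 for the glycolysis class and 0.56 for the HIF response class. Of the 7 glycolysis genes that fell, 5 were still called: Slc2a1 at -1.12 (adjusted p = 0.0113), Pfkl at -1.08 (adjusted p = 0.0109), Pkm at -1.19 (adjusted p = 0.00123), Ldha at -0.68 (adjusted p = 0.0257) and Ldhb at -1.23 (adjusted p = 0.00993). Aldoa and Eno1 lost the call. On the corrected levels Vegfa (1.14, adjusted p = 0.0144) and Egln1 (1.16, adjusted p = 0.0264) of the HIF response class passed the threshold as higher on day 6.

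**Figure D4:**
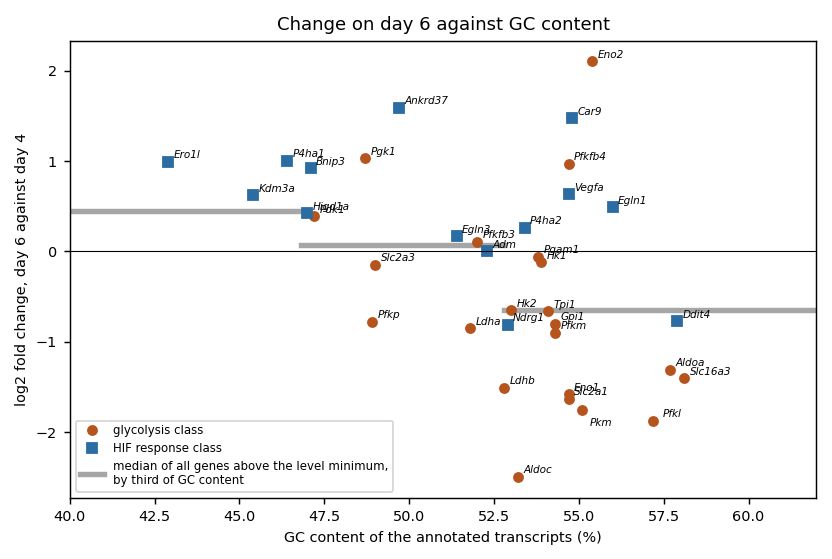
Log2 change from day 4 to day 6 (y axis) of the 36 members against the GC content of the gene in percent (x axis), with grey lines at the median change of all genes in 3 bands of GC content from lowest to highest, within the range plotted. The grey medians step down from 0.45 to -0.65, and HIF response genes lie mostly above the grey lines while most glycolysis genes lie near or below them.

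Several steps of the pathway are served by more than 1 gene, and the balance between such pairs moved over the course. The difference in log2 level within a library cancels the length of the genes when read across days, and it was described with no test. Pfkp minus Pfkl was -0.40 and -0.59, -2.15 and -1.43, -4.10 and -3.60, and -2.75, a move toward Pfkl up to day 4 in both replicates. Aldoc minus Aldoa was -8.80 and -9.75, -7.87 and -7.66, -6.81 and -5.80, and -7.48, a move toward Aldoc up to day 4. From day 0 to day 4 it changed by 2.97, or by 1.68 with a pseudocount of 10 in place of 1. Slc2a3 minus Slc2a1 was 1.44 and 1.41, 0.54 and 0.89, 0.04 and 0.43, and 1.71, so that the balance on day 6 was back near that of day 0. Eno2 minus Eno1 was -7.04 and -7.01, -8.83 and -8.28, -7.82 and -9.32, and -4.90, highest in the day 6 library. With the reads of Eno1b added to Eno1 it was -8.42 and -8.43, -10.89 and -9.64, -9.79 and -10.66, and -6.45, again highest on day 6. Ldhb minus Ldha was -3.08 and -3.25, -1.98 and -2.48, -3.03 and -3.07, and -3.71. Egln3 minus Egln1 was -1.17 and -1.75, -0.49 and -0.47, -1.43 and -0.83, and -1.45. From day 0 to day 4 the remaining pairs changed by -0.08 (Hk2 minus Hk1), -0.20 (Pfkm minus Pfkl), 1.51 (Pfkfb4 minus Pfkfb3, with libraries at 0, and -0.12 with a pseudocount of 10, so that no direction can be read) and -0.39 (P4ha2 minus P4ha1).

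**Figure D5:**
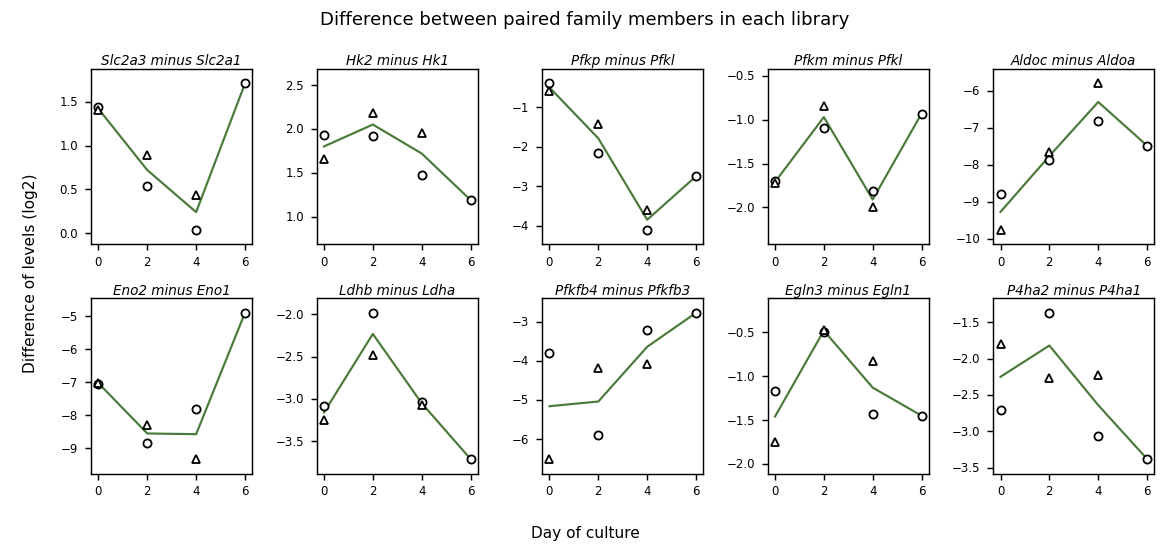
Difference in log2 level between the genes of an isozyme pair (y axis) in each library by day (x axis), as points, with a line joining the means of the days. Pfkp minus Pfkl goes down to day 4, and Aldoc minus Aldoa goes up to day 4, with both replicates of day 4 apart from both of day 0, while Pfkfb4 minus Pfkfb3 has libraries at 0 and no direction that can be read.

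The HIF subunits and their other partners are outside the 36 members. Among them Hif1a, the main oxygen-regulated subunit, was at 10.28 and 10.20, 10.11 and 10.39, 9.96 and 10.13, and 10.47, with no call in any step, although its control acts mostly on the protein, which was not measured. Beside the counts that follow, the shares over all genes that rose and fell were 5.76% and 6.2% on day 2, 1.45% and 2.13% on day 4, and 1.27% and 3.18% on day 6. Of the 9 genes of the HIF machinery, 2 rose on day 2 (Hif3a and Arnt2) and 1 fell on day 4, Epas1 or HIF-2 alpha (-2.03, adjusted p = 0.0227). Of 25 further known HIF targets outside the 36 members, 1 rose and 4 fell on day 2, 3 rose and 1 fell on day 4, and 3 rose and 1 fell on day 6. On day 2 the falls were those of the collagen cross-linking enzyme Loxl2 (-3.59), the clock-related repressor Bhlhe40 (-2.03), the collagen hydroxylase Plod1 (-1.22) and the heme oxygenase Hmox1 (-1.13), and Ak4 rose (0.58). On day 4 Ndufa4l2 (3.26), Loxl2 (1.18) and the mitophagy receptor Bnip3l (0.76) rose and Hmox1 fell (-1.10). On day 6 Loxl2 (1.39), Bnip3l (1.01) and the transferrin receptor Tfrc (0.93) rose and the cytokine Mif fell (-2.81). In the pentose phosphate pathway, which branches from glycolysis and yields NADPH, 2 of 7 genes fell on day 6, with log2 changes of -1.52 for Tkt and -1.73 for Taldo1. Of 14 genes that handle pyruvate and lactate outside the class, 1 rose and 2 fell on day 2, 1 rose on day 4 and 1 rose on day 6.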

How the data were processed

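Polyadenylated RNA from 7 libraries had been prepared with a stranded kit, per the labels' protocols. The deposited table holds the natural log of scaled reads plus 1, which was inferred from its low values, since the sources used here do not state the unit. The authors had quantile normalized the libraries before deposit, as the top 9896 ranks of the columns differ by at most 0.01. GRCm38 is the genome build named in the submitters' processing notes. Aligner and counting tool: not given in the sources used here. All 7 value columns were mapped to libraries by name, and 1 of these has the letter O in place of the digit of day 0.

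Values were divided by the natural log of 2. Of the table, 8674 genes never above 0 and 103 entries for spike-ins, reporters and the like were not tested. The remaining 21813 genes were tested with limma 3.58.1 (trend, robust moderation) in R 4.3.3, with 1 mean per day over the 7 libraries and 3 residual degrees of freedom. P-values were adjusted by Benjamini-Hochberg over all genes tested, with a threshold of 0.05, and the test was tried on simulated data. The genes named are all 36 members, with every library's value for those called, and from other lists those called or needed to read a result. The members and all lists were chosen with earlier results of these data known. GC content came from annotated transcripts (97.7% of genes tested and all 36 members had a value), copies from BLAST 2.17.0 at 95% identity or more over at least 300 bases, and figures from matplotlib 3.10.9. The design had allowed for counts, which the table does not hold. The column names hold 1 label for the libraries of replicate 1, day 6 included, and another for those of replicate 2. The main fit takes no account of it. Replicate numbers were checked for pairing across 11800 genes, by deviations of same-numbered libraries from the day means. These correlated at -0.058 (days 0 and 2), -0.066 (days 0 and 4) and 0.222 (days 2 and 4). They do not settle whether the numbers pair the libraries, and the replicate block is given as an alternative.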

Additional observations from a re-analysis of the deposited data

How the results depend on the processing

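No called change of a member reversed its direction under any setting tried. Of the 45 called changes, 45 were kept with the mean-level minimum of 10 scaled reads, 43 with a pseudocount of 10, 45 with either centring on a median (that of the differences was chosen after seeing the data), 42 on GC-corrected levels and 15 without trend and robust moderation. Calls rose over all genes too with the minimum (from 5.76% and 6.2% higher and lower to 14.17% and 10.83% on day 2). For glycolysis genes from day 0 to day 2, higher calls (1) became 3 with the minimum, 0 without trend, 4 on GC-corrected levels and 4 on these with the replicate block. Lower calls (1) became 3 with the minimum, 2 with the pseudocount of 10, 2 centred on the median difference, 0 without trend, and 3 on GC-corrected levels, also 3 with the block. From day 2 to day 4 higher glycolysis calls (8) became 0 without trend. From day 4 to day 6 the minimum gave 1 higher and 12 lower glycolysis calls and 3 higher HIF response calls, where 6.31% of all genes were called higher and 12.33% lower, against 1.27% and 3.18% without it. GC-corrected levels gave 1 higher glycolysis call and 2 higher HIF response calls, also 2 with the block, and fitting without trend gave 0 lower glycolysis calls. Without trend, higher calls between day 0 and day 4 were 7 (glycolysis) and 3 (HIF response), those of any day were 8 (glycolysis), and higher HIF response calls from day 2 to day 4 were 2. The single lower HIF response call between day 0 and day 4 became 2 with the minimum, centred on the median difference, with only these 2 days fitted or GC-corrected, 3 on GC-corrected levels with the block, and 0 without trend. With a pseudocount of 10 the change from day 0 to day 4 in Aldoc minus Aldoa was 1.68 and in Pfkfb4 minus Pfkfb3 -0.12. The cause of these differences was not tested.

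With the replicate number as a block, 40 of the 45 calls were kept, higher glycolysis calls from day 2 to day 4 fell to 4 of 8, and the lower HIF response call between day 0 and day 4 was lost (0). Apart from the 5 calls lost, the block changed no other call of a member. Leaving out 1 library in turn gave, for glycolysis genes, 0 to 1 higher and 0 to 1 lower calls from day 0 to day 2, 0 to 8 higher from day 2 to day 4, 0 lower from day 4 to day 6, 0 to 13 higher and 0 to 1 lower between day 0 and day 4, and 0 to 11 on any day. For HIF response genes it gave 0 to 3 lower, 0 to 4 higher and 0 to 2 higher in the successive steps, 0 to 6 higher and 0 to 1 lower between day 0 and day 4, and 2 to 6 on any day. The number of calls kept was 1 or 0 of 45 without day 0 replicate 1 or 2, 14 and 14 without those of day 2, and 2 and 4 without those of day 4, and fits with 1 library fewer have fewer degrees of freedom. From day 2 to day 4, limma called 0 of all genes without any 1 library of days 0 and 2 or without day 4 replicate 1, while 3706 to 5099 genes had an unadjusted p below 0.05. The isozyme changes from day 0 to day 4 ran from -1.39 to -0.99 (Slc2a3 minus Slc2a1), -0.31 to 0.16 (Hk2 minus Hk1), -3.60 to -3.10 (Pfkp minus Pfkl), -0.29 to -0.11 (Pfkm minus Pfkl), 2.46 to 3.47 (Aldoc minus Aldoa), -2.29 to -0.79 (Eno2 minus Eno1), 0.03 to 0.20 (Ldhb minus Ldha), 0.16 to 2.86 (Pfkfb4 minus Pfkfb3), 0.03 to 0.63 (Egln3 minus Egln1) and -0.84 to 0.05 (P4ha2 minus P4ha1). The F test over any day was not run without the day 6 library, the fit of 2 days only was not run for day 6, and the alternative normalization planned for counts was not run. Depth limits genes near the estimated level of 3 reads, among them Ankrd37, Car9 and Pfkfb4, Aldoc on day 0 and Adm on day 2.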
